A study of Mus musculus with 22 samples.

Results

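Neurons signal to each other mainly through glutamate, which excites, and through GABA and glycine, which inhibit. Each transmitter acts on ion channels assembled from several subunits, and glutamate and GABA also act on receptors that signal through G proteins. In the hypothalamus these fast signals are the medium through which neurons that set feeding and body temperature talk to each other, and which subunits a neuron makes decides how long and how strongly it responds.

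The genes described here are the receptor subunits for glutamate, GABA and glycine. They were chosen by gene symbol, as probe sets with 1 platform symbol that begins with Gria, Grik, Grin, Grid or Grm and a digit, with Gabr and a letter of the a, b, d, e, g, q or r classes, or that is Gabbr1, Gabbr2, Glra1 to Glra4 or Glrb. The symbol rule itself used no measured value, but the genes were chosen with earlier results of these data known. It gave 48 probe sets of 46 genes, out of 18704 genes on the array with 1 symbol, and 45 of the 46 are receptor subunits. The remaining gene, Grid2ip, encodes a protein that binds a delta receptor and was caught by its symbol.

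The RNA came from the hypothalamus of lean male C57BL/6J mice that were 8 weeks old and had eaten normal chow for 2 weeks. They were injected intraperitoneally with celastrol, a plant triterpenoid known for lowering food intake in obese mice, or with its vehicle DMSO, and 22 Affymetrix arrays were made after 6 h, 1 day and 4 days. Each DMSO group had 4 arrays. The celastrol group of 6 h also had 4, and the 2 later celastrol groups had 3 each. Every mouse received DMSO, at 25 µl per day in the DMSO groups per the labels, and no arrays of uninjected mice were compared. The labels set a dose of 250 µg/kg beside the 6 h celastrol group, and for 1 day and 4 days the sources used here give none. The labels do not say how many mice stand behind an array, so a p-value measures the spread between arrays of a group.

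The values are log2 RMA values, which were background-corrected and quantile-normalised by the authors, and a difference of 1 on this scale means that signal doubles. A gene was tested when its value lay above its array's own median, 8.58 to 8.66, in at least 3 arrays, which 9880 genes did. Of the hypothalamic marker genes on the array, 14 of 15 were brighter in DMSO arrays than 95% of 1183 chemosensory receptor genes. These served as a yardstick for genes of other tissues and had their 95th percentile at 7.13. Crh was the hypothalamic marker below it. Markers of other regions passed the yardstick too: 9 of 9 thalamic, 6 of 6 striatal, 7 of 8 cerebellar and 6 of 7 cortical and hippocampal. So did 6 of 7 choroid plexus and 3 of 6 pituitary markers. The yardstick therefore does not single out hypothalamus. Markers of neighbouring tissue varied between arrays. The mean level of 9 thalamic markers ran from 9.20 to 10.02, and that of 6 pituitary markers from 6.98 to 9.68. The 2 arrays least like their group were DMSO 1 day replicate 1, with a mean correlation of 0.9951, and celastrol 1 day replicate 2, with 0.9945. The mean of the tested receptor genes was 11.02 and 11.05 in those arrays, the lowest of the 22, and reached 11.17 elsewhere. Celastrol 1 day replicate 1 was nearly as unlike its group, with a mean correlation of 0.9952, and its receptor mean was 11.13.

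The regulatory sequence upstream of 2 glycine receptor genes is shown because the alpha subunit gene Glra3 had the largest difference between times in DMSO arrays, while the beta subunit gene Glrb, whose product assembles with every alpha subunit, was among the steadiest. Both are the 250 bases before the RefSeq start in GRCm38.p6, 5′ to 3′ on the gene's strand, with CG dinucleotides in capitals. The Glra3 window lies at chr8:55940168-55940417 on the plus strand and the Glrb window at chr3:80913661-80913910 on the minus strand.
Glra3: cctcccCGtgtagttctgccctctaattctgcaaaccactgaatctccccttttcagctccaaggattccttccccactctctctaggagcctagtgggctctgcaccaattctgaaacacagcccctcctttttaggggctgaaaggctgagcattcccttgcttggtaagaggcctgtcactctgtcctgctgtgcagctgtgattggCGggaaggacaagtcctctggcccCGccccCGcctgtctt
Glrb: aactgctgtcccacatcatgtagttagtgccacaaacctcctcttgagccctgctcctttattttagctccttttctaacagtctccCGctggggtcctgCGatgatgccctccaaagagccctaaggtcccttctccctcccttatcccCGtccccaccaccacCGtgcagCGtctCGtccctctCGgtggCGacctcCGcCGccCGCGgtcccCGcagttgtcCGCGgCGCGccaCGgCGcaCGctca
The Glra3 window held 4 CG dinucleotides and 56.0% G or C, and 62.2% of all RefSeq promoter windows of this length held at least as many. The Glrb window held 20 and 62.4%, and 17.9% of windows held at least as many. Over the 43 promoters listed for 35 of the 46 genes, the median was 9 CG dinucleotides and 60.4% G or C, against 6 and 52.4% over all 32851 promoters.

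Motif searches on both strands of the same windows are given as letters found, not as binding sites. The cAMP response element TGACGTCA was in 0 of the 43 receptor promoters and in 1.55% of all promoters, and the E-box CACGTG of clock factors was in 0 against 6.02%. The letters TATAAA were in 5 of 43, 11.6% against 12.4%, and these belong to Gabra3, Gabrb2, Glra2 and Grin3b. Glra3 and Glrb held none of these motifs.

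In DMSO hypothalamus, 37 of the 46 receptor genes lay above the array median in all 22 arrays and 9 lay below it in all 22. Probe sets bind with unequal strength, so levels were read against the yardstick and not ranked between genes. All 4 AMPA receptor genes (Gria1 to Gria4), which carry fast excitation, were tested, with DMSO means of 11.37 for Gria4 to 12.59 for Gria1. So were all 5 kainate receptor genes, which tune excitability and transmitter release, from 9.37 for Grik1 to 11.46 for Grik2. Of the NMDA receptor genes, which act as coincidence detectors, 5 of 6 were tested, from 8.75 for Grin2c to 11.10 for Grin2b. The delta receptor gene Grid1, an organiser of synapses, had a DMSO mean of 11.12. Of the metabotropic glutamate receptor genes, 6 of 7 were tested, from 9.42 for Grm8 to 12.01 for Grm5.

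On the inhibitory side, 0 of the 3 GABA-A genes of the rho class were tested. Of the other GABA-A receptor genes 10 of 12 were, from 10.54 for Gabra4 to 12.73 for Gabra3. They include Gabre and Gabrq, the epsilon and theta subunits that few brain regions other than the hypothalamus and brainstem make, at 10.55 and 11.88. Both genes of the GABA-B receptor, an obligate heterodimer, were among the bright ones, with Gabbr1 at 13.15 and Gabbr2 at 12.70. Of the glycine receptor genes, 4 of 5 were tested, and the DMSO means were 11.01 for Glra1, 10.60 for Glra2, 9.80 for Glra3 and 12.12 for Glrb.

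Of the 9 dim genes, 2 did not rise above the yardstick. Gabra6, the alpha subunit of cerebellar granule cells, had a DMSO mean of 5.61, and Gabrr3, a rho subunit, had 6.24, against the yardstick's 7.13. The other 7 lay between the yardstick and the array median: Glra4 at 7.18, Grm6, the receptor of retinal bipolar cells, at 7.20, Grin3b at 7.30, Gabrr1 at 7.35, Grid2ip at 7.52, Gabrd at 7.62 and Gabrr2 at 8.05. Gabrd encodes the delta subunit of extrasynaptic GABA-A receptors. With no filter on level, 0 of the 46 genes, these 9 included, passed the adjusted threshold in any comparison of celastrol with DMSO. Few genes of any kind passed there. Of all 18704 genes, 0 passed at 6 h, 1 at 1 day, 3 at 4 days and 7 on average. For changes of the celastrol effect between times, 0 passed. Arrays of Glra4 (7.07 to 7.35), Grm6 (7.02 to 7.51) and Grin3b (7.06 to 7.62) fell on both sides of the yardstick, as the plot of vehicle levels shows.

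**Figure D1:**
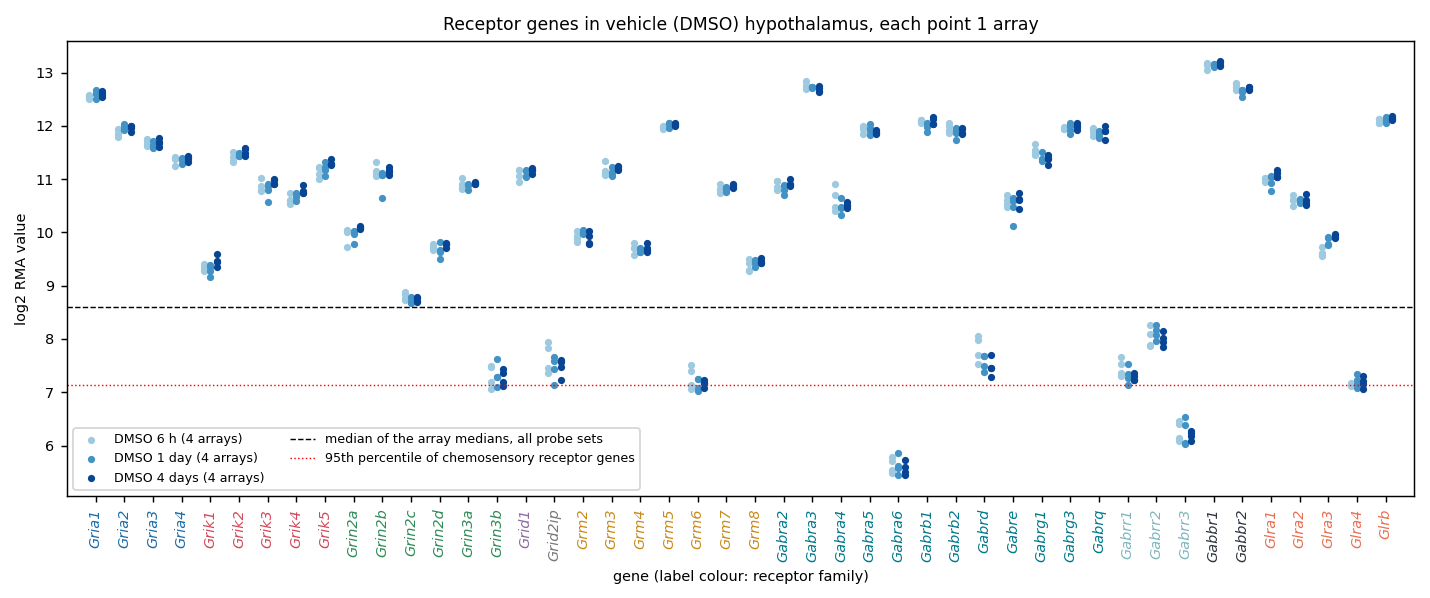
Log2 RMA value (vertical axis) of each of the 46 receptor genes (horizontal axis, in the order AMPA, kainate, NMDA, delta, Grid2ip, metabotropic glutamate, GABA-A, GABA-A rho, GABA-B and glycine) in the 12 DMSO arrays, with 1 point per array and 3 shades of blue for the 3 times. The dashed line is the median of the array medians, 8.61, and the dotted line the yardstick, 7.13. The 37 tested genes sit above the dashed line and Gabra6 and Gabrr3 below the dotted one.

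Within groups, the median SD of the 37 tested receptor genes was 0.0707 against 0.0758 over all genes tested. The lowest were 0.0341 for Grm5, 0.0361 for Gabbr1 and 0.0418 for Glrb, and the highest were 0.205 for Gabra4 and 0.160 for Gabre. Among the 9 dim genes, Grid2ip (0.289) and Gabrd (0.227) had higher SDs still. Gabrb2 was the only receptor gene with more than 1 probe set, and its 3 probe sets disagreed. In DMSO arrays from 6 h to 4 days they differed by 0.03, -0.06 and -0.19, so Gabrb2, kept here as the brightest of them, at -0.06, is uncertain. Between celastrol and DMSO at 6 h the same probe sets differed by 0.11, 0.00 and -0.01, where the kept one gave 0.00.

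Whether celastrol alters these receptors in the lean hypothalamus was asked at each time. None of the 37 tested receptor genes passed for a difference between celastrol and DMSO at 6 h, 1 day or 4 days by limma, with adjustment over all 9880 genes and a threshold of 0.05. The background was equally low: 0% of all genes passed at 6 h, 0% at 1 day and 0.0506% at 4 days. At an unadjusted p under 0.05 there were 2 receptor genes at 6 h (5.41%, against 5.11% of all genes), 0 at 1 day (against 6.66%) and 1 at 4 days (2.70%, against 3.66%). These shares are near or below the background. The median change of the receptor genes was 0.01 at 6 h against 0.02 for all genes, 0.01 at 1 day against -0.01, and 0.00 at 4 days against 0.01.

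The intervals limit how far the whole-tissue signal of a single gene could have differed at a single time. They were not adjusted for the 37 genes and 3 times, so they are no joint limit. A change in only some cells could be diluted in them. The 95% intervals stayed within a 1.2-fold change either way for 35 of the 37 genes at 6 h, 34 at 1 day and 35 at 4 days, and for all 37 they stayed within 1.3-fold at each time. The widest belonged to Gabra4, an alpha subunit of extrasynaptic receptors, whose interval allowed up to 1.29-fold at 1 day and 1.25-fold at 4 days. Of the tested receptor genes, Gabra4 had the highest SD within groups. At 6 h the interval of Glra3 reached farthest, to 1.23-fold. Averaged over the 3 times, 0 receptor genes passed, as did 0.0607% of all genes, and the largest change allowed was 1.13-fold. At an unadjusted p under 0.05 the average had 1 receptor gene, Gabrb1, 2.70% against 4.00% of all genes.

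**Figure D2:**
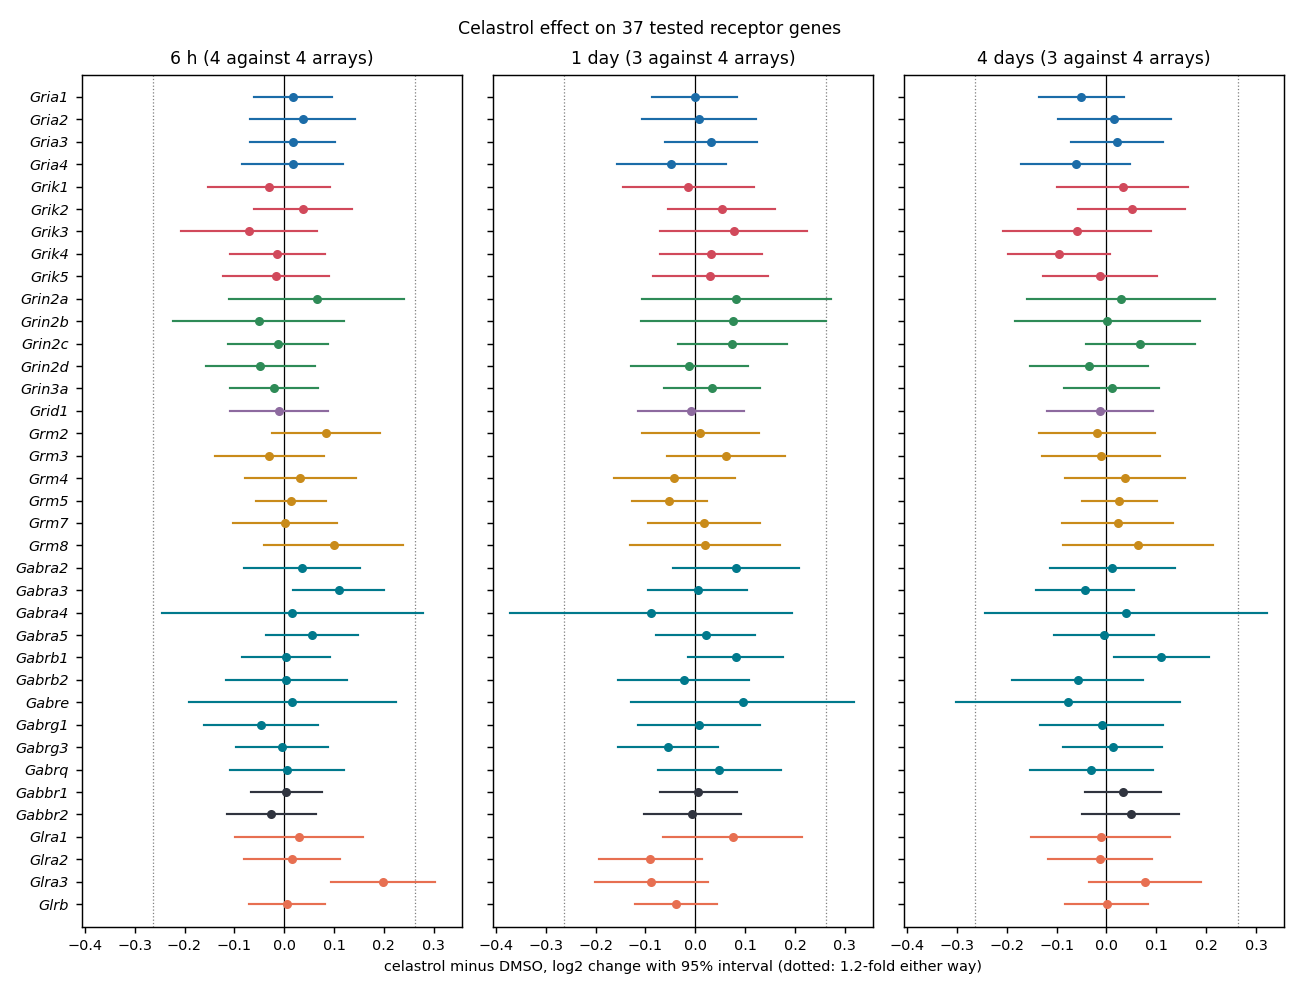
Celastrol minus DMSO (horizontal axis, log2 change with its 95% interval from limma) for the 37 tested receptor genes (vertical axis, coloured by family) at 6 h, 1 day and 4 days. The dotted lines mark a 1.2-fold change either way. Most points lie within 0.10 of 0, and Glra3 at 6 h, 0.20, is the farthest.

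By family, the celastrol changes were small on both sides of 0. The 4 AMPA genes ran from 0.02 (Gria4) to 0.04 (Gria2) at 6 h, and the 5 kainate genes from -0.07 (Grik3) to 0.04 (Grik2). The NMDA genes ran from -0.05 (Grin2b) to 0.06 (Grin2a) at 6 h and from -0.01 (Grin2d) to 0.08 (Grin2a) at 1 day. The metabotropic genes ran from -0.03 (Grm3) to 0.10 (Grm8) at 6 h and from -0.02 (Grm2) to 0.06 (Grm8) at 4 days. The GABA-A genes ran from -0.09 (Gabra4) to 0.09 (Gabre) at 1 day and from -0.08 (Gabre) to 0.11 (Gabrb1) at 4 days. Counts above 0 depended on the scaling: at 6 h, 24 of 37 receptor genes were above 0 in the deposited scale, 13 after a second quantile normalisation and 18 after median centring, so no direction was read from them.

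Glra3, the alpha3 glycine receptor subunit known from spinal pain pathways and retina, was nearest to a celastrol difference at 6 h. Its DMSO arrays at 6 h read 9.62, 9.58, 9.73 and 9.57, and its celastrol arrays 9.82, 9.86, 9.83 and 9.78. Every celastrol array was above every DMSO array. The difference was 0.20 ± 0.05 (SE, 4 against 4 arrays), with an adjusted p of 0.895 by limma over all genes, and the exact two-sided permutation p of 0.0286 is the smallest that 4 against 4 arrays can give. Earlier results of these data had named Glra3 at 6 h, and its p was the smallest of the 37 receptor genes. This permutation p therefore describes the separation of its arrays and is no independent support. Over the 6 Glra3 comparisons made that way it adjusts to 0.0571, which leaves out the choice among genes.

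The later times did not repeat the Glra3 difference. At 1 day the DMSO arrays read 9.92, 9.90, 9.77 and 9.78 and the celastrol arrays 9.83, 9.69 and 9.74, a difference of -0.09. At 4 days the DMSO arrays read 9.89, 9.96, 9.95 and 9.91 and the celastrol arrays 9.87, 10.10 and 10.05, a difference of 0.08. The groups overlapped at both times, with exact two-sided permutation p of 0.2 and 0.314. The change of the Glra3 celastrol effect from 6 h to 1 day was -0.29 ± 0.07, with an adjusted p of 0.581 by limma. No receptor gene passed for a change of the celastrol effect between times, nor did any gene: 0% for 1 day against 6 h, 0% for 4 days against 6 h and 0% for 4 days against 1 day. At an unadjusted p under 0.05 there was 1 receptor gene in each (2.70%, against 8.27%, 3.38% and 6.00% of all genes): Glra3, Gabra3 and Glra3 again.

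GABA-A subunit genes came next. Gabra3, an alpha subunit common in hypothalamic and monoaminergic neurons, read 12.84, 12.75, 12.69 and 12.77 in DMSO at 6 h and 12.83, 12.96, 12.79 and 12.90 in celastrol. These groups overlapped, and the difference was 0.11 ± 0.04 with an adjusted p of 0.895 by limma. Gabrb1, a beta subunit, read 12.04, 12.12, 12.16 and 12.04 in DMSO at 4 days and 12.18, 12.25 and 12.18 in celastrol. Here every celastrol array was above every DMSO array, by 0.11 ± 0.05 on average, with an adjusted p of 1.00 by limma. At 1 day Gabrb1 read 11.89, 12.06, 11.98 and 12.03 in DMSO and 12.09, 12.06 and 12.06 in celastrol, and averaged over the times the difference was 0.06.

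The other genes printed array by array differed less. Glra2, the glycine receptor alpha subunit of the developing brain, read 10.62, 10.59, 10.60 and 10.56 in DMSO at 1 day and 10.47, 10.52 and 10.53 in celastrol, a difference of -0.09 with no overlap and an adjusted p of 0.722 by limma. Grm2, a presynaptic autoreceptor for glutamate, read 10.04, 9.82, 9.90 and 9.94 in DMSO at 6 h and 9.96, 9.94, 10.06 and 10.07 in celastrol, a difference of 0.08 with overlap. Grik4, which encodes a kainate subunit of high affinity, read 10.75, 10.78, 10.88 and 10.74 in DMSO at 4 days and 10.68, 10.70 and 10.69 in celastrol, a difference of -0.10 with no overlap and an adjusted p of 1.00 by limma.

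**Figure D3:**
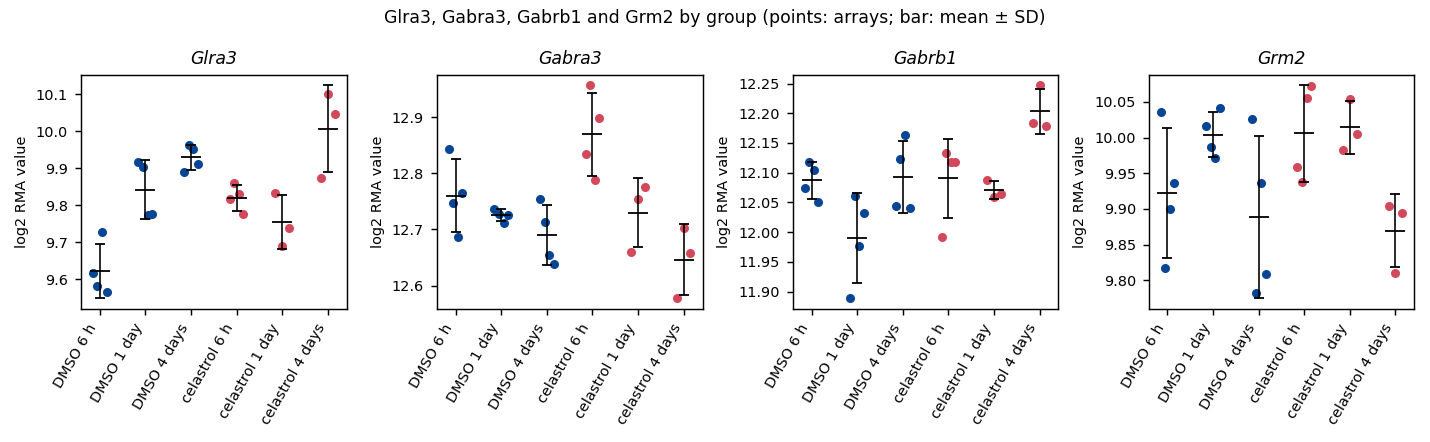
Log2 RMA value (vertical axis, with its own range in each panel) of Glra3, Gabra3, Gabrb1 and Grm2 in each array (points, blue for DMSO and red for celastrol) by group (horizontal axis), with the group mean ± SD. The DMSO 6 h group of Glra3, 9.57 to 9.73, lies below every other group of that gene except for overlap with celastrol at 1 day.

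Vehicle arrays alone differed between times, and here 1 receptor gene passed. Glra3 was higher in the DMSO group at 4 days (9.89 to 9.96) than at 6 h (9.57 to 9.73) by 0.31 ± 0.05, with an adjusted p of 0.0189 by limma and higher values in all 4 arrays. It was 1 of 37 receptor genes, in a comparison where 25 of 9880 genes, 0.253%, passed, and it ranked 2 by p. At 1 day Glra3 was higher than at 6 h by 0.22 ± 0.05, with an adjusted p of 0.0853 by limma, and again the groups did not overlap. The exact two-sided permutation p was 0.0286 in both, and 0.143 for the 0.09 between 1 day and 4 days. Both differences, and the celastrol difference at 6 h, rest on the same 4 DMSO arrays of 6 h.

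The Glra3 difference between vehicle times kept its size but not its call in some settings. The adjusted p was 0.0535 without DMSO 6 h replicate 2, 0.116 without DMSO 4 days replicate 3 and 0.0580 without DMSO 4 days replicate 4, with differences of 0.29, 0.30 and 0.31, and limma gave 0.0781 with no filter and 0.0729 when only these groups were fitted. In these groups the mean of the 9 thalamic markers was 9.43 to 9.91 at 6 h and 9.27 to 9.51 at 4 days, that of 6 pituitary markers 7.10 to 9.68 and 6.98 to 7.69, and that of 9 oligodendrocyte markers 11.36 to 11.46 and 11.45 to 11.53. Of the pituitary markers, Prl, Fshb and Tshb had DMSO means below the yardstick. The mean of 12 pan-neuronal markers was 12.13 to 12.15 and 12.14 to 12.19. The part of these tissues in the Glra3 difference was not tested. In whole tissue, fewer cells of a type and less RNA per cell cannot be told apart.

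The kainate receptor genes were all higher at 4 days than at 6 h in DMSO arrays, although 0 of 5 passed the adjusted test. Most genes lay that way: 66.1% of all genes tested and 26 of the 37 receptor genes (70.3%). These include 4 of 4 AMPA genes and 5 of 6 metabotropic genes, but 4 of 10 GABA-A genes. Of the pan-neuronal markers 10 of 12 were higher. The kainate differences were 0.17 for Grik5, 0.16 for Grik4, 0.12 for Grik2, 0.12 for Grik1 and 0.09 for Grik3, with a median of 0.12 against 0.03 over all genes. Grik4 and Grik5 are the high-affinity subunits that join channels formed by Grik1, Grik2 or Grik3. Grik5 read 11.01, 11.11, 11.23 and 11.20 at 6 h and 11.27, 11.29, 11.37 and 11.30 at 4 days, with no overlap and an adjusted p of 0.163 by limma. Grik4 read 10.60, 10.62, 10.74 and 10.54 at 6 h and 10.75, 10.78, 10.88 and 10.74 at 4 days, with an adjusted p of 0.132 by limma. These groups nearly touched: the highest array at 6 h was 10.7444 and the lowest at 4 days 10.745, with a within-group SD of 0.0619. All 5 stayed above 0 after a second quantile normalisation and after median centring.

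Against 1 day the kainate genes were again 5 of 5 higher at 4 days, with a median of 0.11 against 0.00 over all genes. Other families were higher there too: 5 of 5 NMDA genes, also with a median of 0.11, 4 of 4 glycine receptor genes and both GABA-B genes, and 31 of the 37 receptor genes in all (83.8%, against 49.2% of all genes tested). Of the pan-neuronal markers 10 of 12 were higher, with a median of 0.03, and of the astrocyte markers 2 of 10, with a median of -0.05. The part of these markers in the receptor differences was not tested. Grik1 read 9.15, 9.38, 9.35 and 9.27 at 1 day and 9.35, 9.60, 9.45 and 9.47 at 4 days, a difference of 0.18 with overlap and an adjusted p of 0.179 by limma. Grik3 read 10.56, 10.90, 10.81 and 10.87 and then 10.91, 10.91, 11.01 and 10.99, a difference of 0.17. Without the 2 least typical arrays the median over the family was 0.08 and all 5 were still above 0. These DMSO comparisons share arrays with each other.

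**Figure D4:**
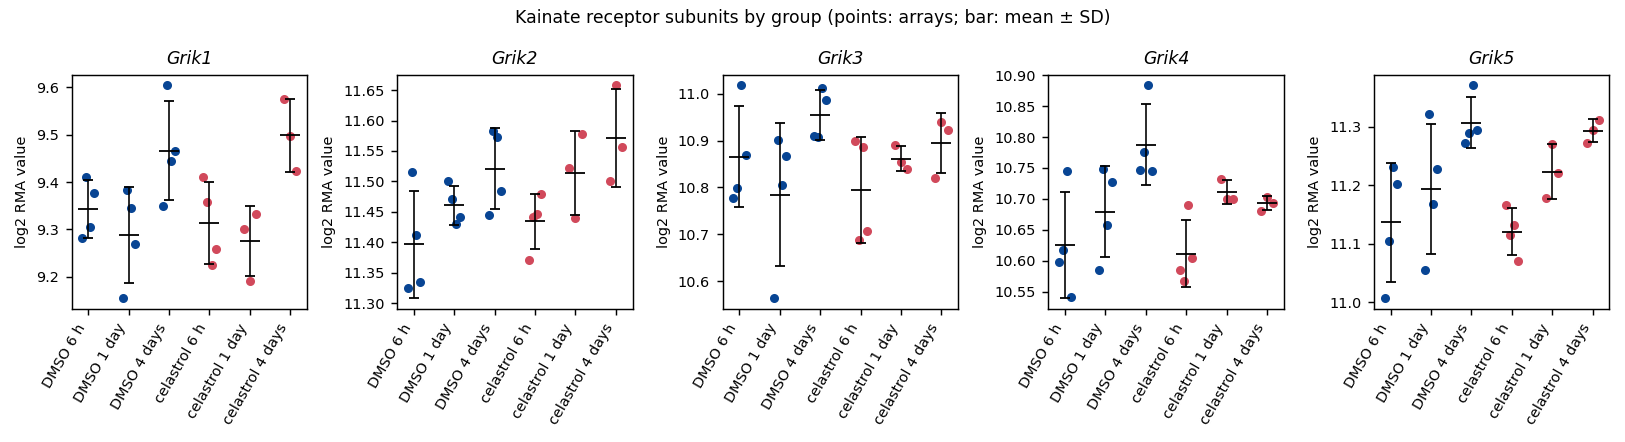
Log2 RMA value (vertical axis, with its own range in each panel) of the 5 kainate receptor genes in each array by group (horizontal axis), with the group mean ± SD. In both treatments the mean at 4 days lies above the mean at 6 h for each gene, and the groups of several genes overlap.

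Over all families, the vehicle differences between times had 0 receptor genes called at 1 day against 6 h (0% of all genes passed) and 0 at 4 days against 1 day (0.152%). At an unadjusted p under 0.05 there were 5 receptor genes at 1 day against 6 h (13.5%, against 14.1% of all genes), 6 at 4 days against 6 h (16.2%, against 15.3%) and 8 at 4 days against 1 day (21.6%, against 14.7%). At 1 day against 6 h, 4 of the 5 were lower: Gabbr2, Gabrg1, Gabrb1 and Grin2b. The Grin2b difference leaned on DMSO 1 day replicate 1, which read 10.66, where the other arrays of that group read 11.08 to 11.11. At 4 days against 1 day, 7 of the 8 were higher, among them Grik1, Grik3, Grik4, Grik5 and the glycine subunit Glra1, and Grm2 was lower by 0.11.

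The GABA-A genes were lower at 1 day than at 6 h in DMSO arrays in 10 of 10 cases, with a median of -0.09 against 0.03 over all genes, and 0 of 10 passed. The 3 Gabrb2 probe sets differed here by 0.11, -0.10 and -0.16. Gabrb2 was counted by the brightest, at -0.10, so its sign depends on that choice. Marker genes of cell types and neighbouring tissue differed between the same arrays. The median was -0.18 over the thalamic markers tested (7 of 8 lower), -0.01 over the pan-neuronal markers (8 of 12 lower), 0.10 over the oligodendrocyte markers (7 of 9 higher) and 0.06 over the astrocyte markers (8 of 10 higher, 4 of the 10 at an unadjusted p under 0.05). All 3 tested pituitary markers were lower, with a median of -0.54. The mean over the thalamic list was 9.43 to 9.91 at 6 h and 9.31 to 9.62 at 1 day, that over the oligodendrocyte list 11.36 to 11.46 and 11.42 to 11.54, and that over the astrocyte list 11.16 to 11.23 and 11.23 to 11.29. None of these markers passed the adjusted test, and their part in the GABA-A differences was not tested. Gabrg1, a gamma subunit, read 11.49, 11.66, 11.46 and 11.55 at 6 h and 11.38, 11.39, 11.35 and 11.51 at 1 day, a difference of -0.13 with overlap. Gabbr2, a partner in the GABA-B pair, read 12.81, 12.79, 12.73 and 12.68 and then 12.55, 12.64, 12.68 and 12.67, a difference of -0.12 with an adjusted p of 0.234 by limma. The 5 NMDA genes were also all below 0, with a median of -0.07. Without the 2 least typical arrays, 2 of 10 GABA-A genes and 1 of 5 NMDA genes were above 0. At 4 days Gabrg1 read 11.27, 11.45, 11.39 and 11.39, lower than at 6 h by 0.16 on the log2 scale, with an adjusted p of 0.189 by limma.

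The celastrol arrays give the same comparisons between times from other arrays, and these were added after the vehicle results had been seen. From 6 h to 4 days 1 of 37 receptor genes passed, Gabra3, where 151 of 9880 genes, 1.53%, passed. Gabra3 read 12.83, 12.96, 12.79 and 12.90 at 6 h and 12.58, 12.70 and 12.66 at 4 days. It fell by 0.22 on the log2 scale, with an SE of 0.05 and an adjusted p of 0.0212 by limma, and the groups did not overlap. In DMSO arrays the Gabra3 difference was -0.07, and the difference between the treatments, -0.15, had an adjusted p of 0.997 by limma.

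The Gabra3 call rested on single arrays. Its adjusted p by limma lay between 0.0505 and 0.0917 without celastrol 6 h replicate 2 or 4, or without celastrol 4 days replicate 1, 2 or 3, and was 0.0634 with no filter and 0.0704 when only these groups were fitted. The thalamic mean was 9.29 to 10.02 at 6 h and 9.20 to 9.89 at 4 days in these arrays, the astrocyte mean 11.19 to 11.37 and 11.19 to 11.24, and the microglial mean 9.14 to 9.23 and 9.29 to 9.32. The part of these in the Gabra3 difference was not tested.

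From 6 h to 4 days, Glra3 and the 5 kainate genes had the same sign in both treatments. Glra3 was higher in celastrol arrays at 4 days than at 6 h by 0.19, with an adjusted p of 0.0801 by limma, and higher than at 1 day by 0.25, with 0.114. The 5 kainate differences from 6 h to 4 days were 0.19 for Grik1, 0.17 for Grik5, 0.14 for Grik2, 0.10 for Grik3 and 0.08 for Grik4. The shorter steps were not alike throughout. From 6 h to 1 day Glra3 differed by 0.22 in DMSO arrays and by -0.07 in celastrol arrays, and Grik3 by -0.08 and 0.07. From 1 day to 4 days Grik4 differed by 0.11 and -0.02. From 6 h to 1 day, 10 of 10 GABA-A genes were below 0 in celastrol arrays too, 9 of 10 after a second quantile normalisation and 7 of 10 without the 2 least typical arrays. Their median in celastrol arrays was -0.05 against -0.01 over all genes tested, of which 45.7% were above 0. Gabrb2 was again counted by its brightest probe set. From 6 h to 4 days, 31 of 37 receptor genes (83.8%) had the same sign in both treatments, against 71.1% of all genes tested. For 1 day against 6 h the shares were 73.0% and 53.6%, and for 4 days against 1 day 83.8% and 61.0%. Receptor genes are not independent of each other, and these shares carry no test.

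Counts of receptor genes at an unadjusted p under 0.05 in celastrol arrays were 3 from 6 h to 1 day (8.11%, against 7.37% of all genes), 9 from 6 h to 4 days (24.3%, against 18.0%) and 5 from 1 day to 4 days (13.5%, against 10.9%). The adjusted test called 0 receptor genes from 6 h to 1 day, where 0.0202% of all genes passed, and 0 from 1 day to 4 days, where 0% did. Of the 9 from 6 h to 4 days, Glra3, Grik5, Grik1, Grik2 and Gabrb1 were higher, and Gabra3, Gabra5, Grm2 and Gabrg1 were lower. Gabra5, the alpha subunit best known from hippocampal tonic inhibition, read 11.95 to 12.06 at 6 h and 11.84 to 11.92 at 4 days, with no overlap and an adjusted p of 0.185 by limma. Grm2 read 9.90, 9.81 and 9.89 at 4 days, below its 6 h arrays, by 0.14 on average.

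**Figure D5:**
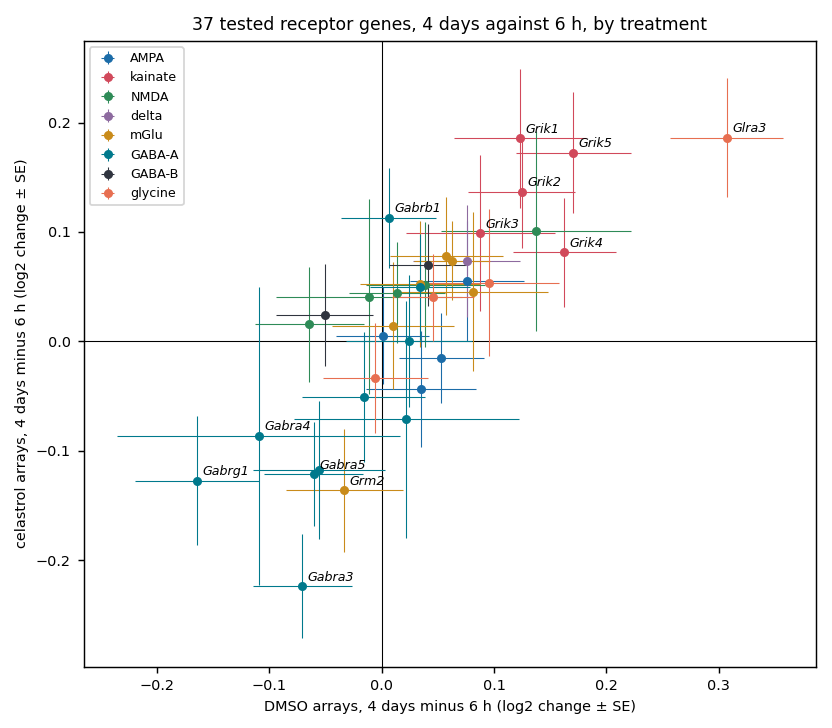
Difference from 6 h to 4 days in DMSO arrays (horizontal axis) and in celastrol arrays (vertical axis), as log2 change ± SE, for the 37 tested receptor genes coloured by family. The 2 axes share no array. The 5 kainate genes and Glra3 lie in the upper right, and Gabra3, Gabra5 and Gabrg1 in the lower left.

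The other genes of these synapses were taken from 4 lists. The enzymes that make and break down the transmitters (9 of 12 listed genes tested), their vesicular and membrane transporters (15 of 19), the auxiliary subunits of the receptors (19 of 20) and the scaffolds that hold them (19 of 21) had 0 genes called in each celastrol comparison and in each vehicle comparison. For the celastrol average, the median was 0.00 for the enzymes and 0.01 for each of the other 3 lists, against 0.00 over all genes. Gad1, which makes GABA, differed by -0.05 on average with celastrol, and Slc32a1, which loads GABA and glycine into vesicles, by -0.06. Cacng5, an auxiliary subunit of AMPA receptors, and Grip2, a scaffold for them, differed by -0.06 each, and Glud1, which makes and oxidises glutamate, by 0.05.

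Between vehicle times the enzymes came closest. Got2, the mitochondrial aspartate aminotransferase that interconverts glutamate and 2-oxoglutarate, was 0.18 ± 0.04 higher at 4 days than at 6 h, with an adjusted p of 0.0511 by limma, and Aldh5a1, which completes GABA breakdown, 0.17 ± 0.05 higher, with 0.151. Slc6a9, the glial glycine transporter, differed by 0.14 between 1 day and 6 h, with an adjusted p of 0.153 by limma. Cacng3, another auxiliary subunit of AMPA receptors, differed by 0.18 there, with 0.184. The medians from 6 h to 4 days were 0.04 for the enzymes, 0.04 for the transporters, 0.05 for the auxiliary subunits and 0.05 for the scaffolds, against 0.03 over all genes.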

How the data were processed

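The authors computed the deposited log2 intensities with RMA (version not given in the sources used here), per the submitters' processing notes. Per the labels' protocols, Trizol RNA passed a column clean-up and a whole-transcript biotin labelling, and 22 arrays were hybridised. The table held 23492 probe sets and 0 columns of other samples. Symbols came from the platform annotation: 20228 probe sets had 1 symbol, 1399 several and 1865 none. Where a gene had several probe sets, the brightest on average stood for it. The filter on the array median passed 9880 of 18704 genes; both treatments entered it, and no receptor gene passed through 1 group only. The number of arrays limits the precision.

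Groups came from the labels. All 22 arrays entered a single limma 3.58.1 fit (R 4.3.3, lmFit and eBayes) of 6 group means, with 16 residual degrees of freedom, two-sided tests, Benjamini-Hochberg adjustment over all genes tested and a threshold of 0.05; the scripts were tested on simulated data. Single-gene exact permutation tests were run for Glra3. Promoter windows came from RefSeq (GRCm38.p6) and were matched by symbol. Alternatives were the filter, the probe set rule, a second quantile normalisation, median centring, limma-trend, a replicate block, a leading residual component, only the groups compared, and leaving out arrays.

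The members and lists were chosen with earlier results of these data known. Every receptor gene could be named. Array values are printed for called genes, otherwise for the 3 with the smallest p in a comparison, and for Glra3; of the lists, called genes, otherwise up to 2 with the smallest p on the celastrol average and between vehicle times. The values of Grik2 and Grin2a by family, of Grik5, Grik4 and Gabrg1 array by array, of Gabra5 and of all celastrol arrays between times were chosen after they had been seen.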

Additional observations from a re-analysis of the deposited data

Results flagged for a closer look

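Of 48 groups of 4 arrays examined over 12 receptor genes, 1 had an array far from the other 3. Gabrb1 read 11.99 in celastrol 6 h replicate 1, where the other 3 arrays read 12.12 to 12.13. Chance sets apart an array in about 1 of 20 such groups.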

How the results depend on the processing

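No named value reversed its sign under any alternative run: of 1053 values for 33 named results, 1039 kept their side of the threshold, 12 lost a call and 2 gained one. Many of these runs could not reverse a sign. Another filter, limma-trend, fitting only the groups compared or leaving out an array of another group returns the same difference. Such runs can change only its p. The median over the receptor genes for celastrol against DMSO lay close to 0 and changed sign between alternatives: it ran from -0.0055 to 0.025 at 6 h, from -0.0047 to 0.028 at 1 day and from -0.017 to 0.024 at 4 days. For celastrol against DMSO, 0 receptor genes were called at each time, on average and for changes between times in every alternative run. For DMSO from 6 h to 4 days, the count of receptor genes called, 1 as reported, was 0 with no filter and 0 when only the groups compared were fitted, and it ranged from 0 to 2 with single arrays left out: 2, with Grik4, without DMSO 6 h replicate 3. For DMSO from 6 h to 1 day it ranged from 0 to 1, with Glra3 called without DMSO 6 h replicate 3 at an adjusted p of 0.0426. For celastrol arrays from 6 h to 4 days it was 0 with no filter and 0 when only the groups compared were fitted, and 0 to 1 with single arrays left out. From 1 day to 4 days it was 1, Glra3, with the leading residual component.

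Counts over all genes moved more. From 6 h to 4 days in DMSO arrays, the 25 genes called became 1 with no filter, 0 when only the groups compared were fitted, 45 with limma-trend, 115 with the residual component, 52 without the 2 least typical arrays (an alternative chosen after seeing the data), and 0 to 147 with single arrays left out. In celastrol arrays the 151 became 54, 100, 211, 431 and 318, and 15 to 242. Same-numbered arrays did not deviate together (median correlation -0.03 over 51 pairs, from -0.44 to 0.41), so replicate numbers were not used as pairs. With the replicate block, 22 genes were called in DMSO arrays and 131 in celastrol arrays, Glra3 and Gabra3 remained called, and no other call on a receptor gene changed. Over all alternatives, the 15 genes called in DMSO arrays from 1 day to 4 days ranged from 0 to 106, the 0 from 6 h to 1 day reached 46, the 0 in celastrol arrays from 1 day to 4 days reached 69, the 2 from 6 h to 1 day ranged from 0 to 8, and for celastrol against DMSO the counts ranged from 0 to 5 at 1 day, 0 to 13 at 4 days and 1 to 9 on average. Why these counts moved was not tested; the groups of 3 and 4 arrays limit all of them.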
